A study of Mus musculus with 18 samples.

Results

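The 10 genes described here encode A20, its binding partners and other proteins that attach, remove or read ubiquitin on the way to NF-κB, together with Bcl3, which acts on NF-κB in the nucleus. They were taken by symbol (Tnfaip3, Tnip1, Tnip2, Cyld, Rnf31, Rbck1, Birc3, Traf1, Traf2 and Bcl3) from the 23420 genes listed for each of 18 RNA-seq libraries, and all 10 were listed and tested. The rule used the symbols and no measured value.

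The libraries came from splenic B cells of MRL/lpr mice, a lupus-prone strain that carries the Fas lpr mutation, aged 5 to 7 weeks. The cells were enriched on beads by removing cells of other types, and were then cultured for 4 h with or without an agonist of a Toll-like receptor (TLR). The study asked whether the TIR domain, the part of a TLR inside the cell that starts signaling, sets what TLR7 and TLR9 do. There were 6 groups of 3 libraries, and nothing in the labels ties a library to a named mouse, so p-values measure the spread between these libraries. In the Tlr7-/- arm all mice were female and lacked Tlr7. They carried either the chimeric allele Tlr997 or an unmodified Tlr9 allele (Tlr9+/-, shown as Tlr9het in the plots). Tlr997 encodes a TLR9 with the TIR domain of TLR7. Per the study, the Tlr997 mice were homozygous, and Tlr9+/- was the control because its B cells held as much TLR9 protein. The cells were left unstimulated or given 10 µg/ml of the TLR9 agonist CpG (ODN 1826). In the Tlr779 arm all mice were male and Tlr9-/- and carried Tlr779, a TLR7 with the TIR domain of TLR9, and the cells were left unstimulated or given 5 µg/ml of the TLR7 agonist CL097. The sample titles name the control of the first arm Tlr9+/- Tlr7-/-, while the treatment text names it Tlr9-/- Tlr7-/-. The chimeric alleles were germline knock-ins at the endogenous loci, so every cell type of these mice carried them, and the endogenous TIR sequence remained in the locus behind an added stop codon. Sex, genotype and agonist all differ between the arms, so values of the arms stand side by side here and no test compares them. Tlr9-/- libraries with an unmodified Tlr7, which the study also describes, were not analysed here.

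Ubiquitin chains serve as scaffolds in this pathway: chains linked through lysine or head to tail (linear) recruit the kinases that release NF-κB. A20 edits and binds such chains, CYLD cleaves them, and both restrain the signal, while TRAF2, cIAP2 and the linear ubiquitin chain assembly complex (LUBAC) build them. The gene for A20 is a textbook target of NF-κB, and loss of A20 in B cells is known to lead to autoimmunity in mice.

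All 6 B cell markers, among them Cd79a, Cd79b, Ms4a1, Pax5 and Cd22, were above 0 log2 CPM, the log2 of counts scaled to a common library size, in every group. Their summed level was 5523 to 7338 CPM in the unstimulated libraries and lower with an agonist, at 1653 to 1721 CPM in Tlr9+/- with CpG, 2598 to 3160 CPM in Tlr997 with CpG and 2373 to 3021 CPM in Tlr779 with CL097. Not every marker was lower with CpG: the mean of Pax5 was 6.84 log2 CPM without and 7.39 with CpG in Tlr9+/- and 6.79 and 7.26 in Tlr997, and that of Ms4a1 was 10.06 and 9.31 in Tlr9+/- but 10.16 and 10.57 in Tlr997. The 6 T cell markers summed to 1.8 to 24.5 CPM and the 3 NK cell markers to at most 6.91 CPM, while the 5 macrophage markers summed to 57.2 to 389.6 CPM and the 4 erythroid markers to 12.2 to 474.4 CPM. The neutrophil markers, 4 of 5 of them listed, summed to 14.9 to 112.5 CPM, and the 3 plasmacytoid dendritic cell markers to 336.5 to 401.4 CPM without and 121 to 250.7 CPM with an agonist. That last sum was nearly all Tcf4, at 364.8 CPM in unstimulated Tlr9+/-, where Siglech was at 4.63 and Ccr9 at 2.64 CPM. Fewer cells of a type and less RNA per cell cannot be told apart in such bulk libraries. Replicates correlated across genes with Pearson's r between 0.94 and 0.99, and replicate 3 of unstimulated Tlr997 stood apart, with r of 0.944 and 0.955 to the other two. Tlr7 was at a mean of 3.15 log2 CPM in unstimulated Tlr9+/- and 4.96 in Tlr997, whose allele holds Tlr7 TIR sequence, and at 6.88 in unstimulated Tlr779. Tlr9, the gene for the receptor of CpG, was at 8.01 log2 CPM in Tlr9+/- with CpG and at 7.31 in Tlr997 with CpG, a log2 difference of -0.70 that passed the test (adjusted p = 0.00078). Yet Tlr9 was also at 7.24 log2 CPM in unstimulated Tlr779 and at 7.19 with CL097, although those mice were Tlr9-/-. Reads on Tlr9 thus need not come from the transcript of an intact receptor.

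The promoter sequences are shown first because NF-κB is known to act on Tnfaip3 and other genes of this set through them. The members' RefSeq promoter windows (build GRCm38.p6, from 250 bases before the start to 50 after, 12 windows for the 10 genes) were searched on both strands for the κB motif, the 10-base consensus that NF-κB binds. It stood in 4 of the 10 genes, Tnfaip3, Tnip1, Cyld and Bcl3, and in 1388 of all 27025 genes with a window, or 5.14%. The letters come from the reference strain and not from MRL mice, a match is no evidence of binding, and the search says nothing of sites outside the window. Below, 200 bases are printed for the 4 genes with a match and for Traf1, the member with the largest response and no match. Capitals mark the matches, and positions count from 0 at the first transcribed base.
Tnfaip3, chr10:19015411-19015610, minus strand, positions -200 to -1: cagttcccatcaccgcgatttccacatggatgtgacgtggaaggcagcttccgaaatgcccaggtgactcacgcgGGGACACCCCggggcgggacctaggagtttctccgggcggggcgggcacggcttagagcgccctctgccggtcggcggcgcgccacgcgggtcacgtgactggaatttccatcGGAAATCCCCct
Tnip1, chr11:54962941-54963140, minus strand, positions -200 to -1: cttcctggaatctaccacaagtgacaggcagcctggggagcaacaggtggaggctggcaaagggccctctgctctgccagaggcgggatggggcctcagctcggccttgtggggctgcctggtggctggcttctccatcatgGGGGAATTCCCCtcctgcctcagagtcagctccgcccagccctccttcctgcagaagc
Cyld, chr8:88696828-88697027, plus strand, positions -200 to -1: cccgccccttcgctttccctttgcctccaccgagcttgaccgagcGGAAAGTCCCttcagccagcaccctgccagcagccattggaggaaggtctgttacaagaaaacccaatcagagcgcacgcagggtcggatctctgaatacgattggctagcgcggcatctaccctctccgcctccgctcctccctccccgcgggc
Bcl3, chr7:19822726-19822925, minus strand, positions -170 to 29: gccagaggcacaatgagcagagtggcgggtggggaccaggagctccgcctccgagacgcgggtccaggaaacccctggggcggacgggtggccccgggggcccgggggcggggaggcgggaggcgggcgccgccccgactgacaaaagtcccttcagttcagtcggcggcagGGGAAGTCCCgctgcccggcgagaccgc
Traf1, chr2:34961773-34961972, minus strand, positions -200 to -1: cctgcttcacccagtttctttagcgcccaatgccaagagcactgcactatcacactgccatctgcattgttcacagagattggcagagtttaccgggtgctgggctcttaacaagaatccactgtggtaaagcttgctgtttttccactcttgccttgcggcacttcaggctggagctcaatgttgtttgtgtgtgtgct

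In Tnfaip3 the matches began at -125 and -12 from the RefSeq start of this window, the second within a few bases of it. The GENCODE gene on that minus strand reaches to 19015657, so both matches lie inside it. The other Tnfaip3 window, at 19011914 to 19012213, had no match. In Tnip1, 3 overlapping matches began at -58, -57 and -56 and merge into a single palindromic run. Cyld had a single match, at -155, and Bcl3 a single match at 2, just inside the transcript. Tnip2, Rnf31, Rbck1, Birc3 and Traf2, like Traf1, had no match in their windows. Of the 4 genes with a match, 3 rose and 1, Cyld, fell with CpG in Tlr9+/-, as described next.

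The gene for A20 rose with either agonist. Tnfaip3 (chromosome 10, 19000910 to 19015657, GRCm38) was at 7.152, 7.192 and 7.171 log2 CPM in the 3 unstimulated Tlr9+/- libraries and at 9.560, 9.481 and 9.444 with CpG. In Tlr997 it was at 7.376, 7.242 and 7.244 without and at 9.063, 8.893 and 9.028 with CpG. In Tlr779 it was at 7.099, 7.055 and 7.049 without and at 8.658, 8.761 and 8.515 with CL097. Every stimulated library was therefore far above every unstimulated library, and the 3 Tlr997 libraries with CpG were all below the 3 Tlr9+/- libraries with CpG. The log2 fold change was 2.32 (SE 0.058) for CpG in Tlr9+/-, 1.71 (SE 0.058) for CpG in Tlr997 and 1.58 (SE 0.075) for CL097 in Tlr779, with limma adjusted p-values of 2.53e-12, 3.11e-11 and 4.02e-06. As ratios these were increases of 5.00-fold, 3.27-fold and 2.98-fold.

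**Figure D1:**
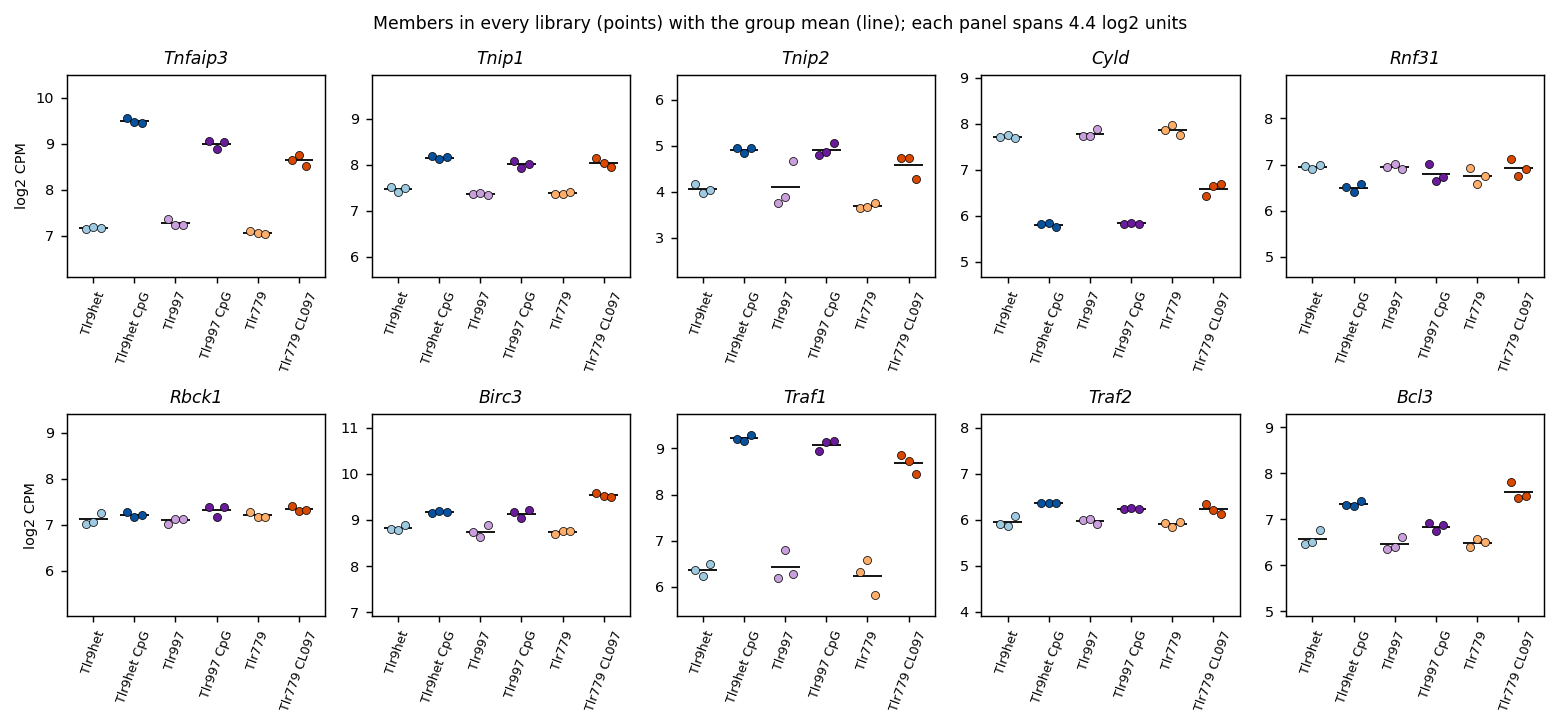
Level of each of the 10 members in log2 CPM (vertical axis, 4.4 log2 units in every panel) in the 6 groups (horizontal axis). Points are the 3 libraries of a group and the line is their mean. Tnfaip3 and Traf1 were higher and Cyld was lower in every stimulated library than in any unstimulated one, while the levels of Rbck1 hardly moved.

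Changes were called at an adjusted p under 0.05 and a log2 fold change over 0.5 in either direction. With CpG in Tlr9+/- cells 5 of the 10 members rose (Tnfaip3, Tnip1, Tnip2, Traf1 and Bcl3), where 29.7% of all 11494 genes tested were called higher, and 1 fell (Cyld), where 28.2% were called lower. With CpG in Tlr997 cells 4 rose (Tnfaip3, Tnip1, Tnip2 and Traf1; background 29.6%) and Cyld fell (26.0%). With CL097 in Tlr779 cells 6 rose (the 5 of Tlr9+/- and Birc3; background 22.7% of 11082 genes) and Cyld fell (23.6%). The agonists changed most expressed genes: at an adjusted p under 0.05 and any fold change 9, 9 and 8 of the 10 members passed, and so did 72.7%, 71.1% and 61.6% of all genes tested. The median log2 fold change of the members was 0.55, 0.39 and 0.73, beside 0.04, 0.07 and -0.02 over all genes tested.

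**Figure D2:**
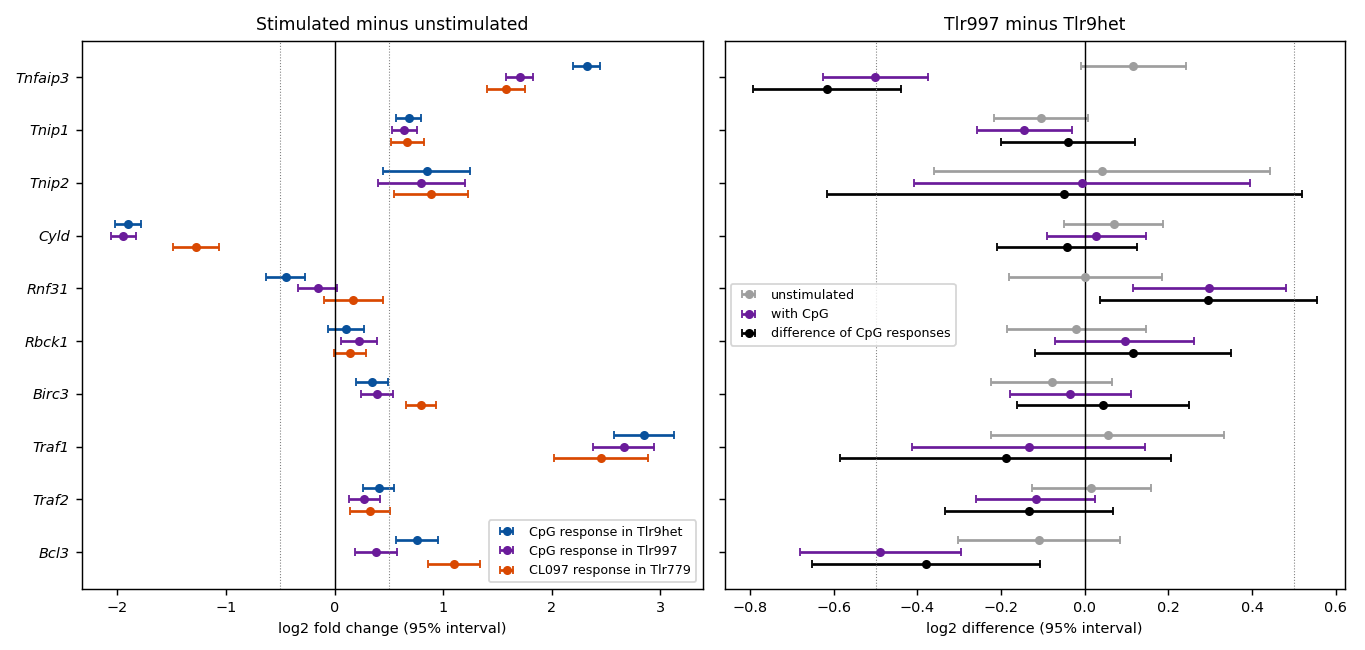
Left, log2 fold change with its 95% interval (horizontal axis) of each member with CpG in Tlr9het, with CpG in Tlr997 and with CL097 in Tlr779. Right, the log2 difference Tlr997 minus Tlr9het without and with CpG, and the difference of the CpG responses. Dotted lines mark the log2 threshold of 0.5, and in the right panel Tnfaip3 lies farthest from 0, at -0.50 with CpG and -0.62 for the difference of responses.

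Tnip1 and Tnip2, which encode partners of A20, also rose in all 3 responses, with smaller fold changes. Tnip1 encodes ABIN-1, which binds linear and lysine-linked chains and brings A20 to them. Its levels were 7.512, 7.406 and 7.489 log2 CPM in unstimulated Tlr9+/- cells and 8.179, 8.122 and 8.156 with CpG, 7.361, 7.395 and 7.337 against 8.079, 7.920 and 8.023 in Tlr997, and 7.361, 7.365 and 7.400 against 8.141, 8.043 and 7.955 in Tlr779. The groups did not overlap, and the 3 responses were nearly equal in size, with log2 fold changes of 0.68 (SE 0.052), 0.64 (SE 0.052) and 0.67 (SE 0.067) and adjusted p-values of 5.26e-08, 1.13e-07 and 7.33e-05.

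Tnip2 encodes ABIN-2, a related adaptor that also holds the kinase TPL2. It was the lowest member, at 3.981 to 4.173 log2 CPM in unstimulated Tlr9+/- cells and 4.845 to 4.950 with CpG, and its log2 fold changes were 0.85 (SE 0.19), 0.80 (SE 0.19) and 0.89 (SE 0.15), with adjusted p-values of 0.0010, 0.0017 and 0.0011. In unstimulated Tlr997 the libraries were at 3.759, 3.885 and 4.678, the high one being replicate 3, which stood apart over all genes too. Without that library the response in Tlr997 was 1.08 in place of 0.80. In Tlr779 with CL097 replicate 3 was at 4.274 and the other two at 4.736 and 4.731, all above the unstimulated range of 3.645 to 3.759.

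Cyld was the only member called lower, and it was called so in all 3 responses. It encodes a deubiquitinase that cleaves linear and lysine-linked chains and is held to keep NF-κB low in resting cells. The libraries were at 7.701, 7.743 and 7.680 log2 CPM in unstimulated Tlr9+/- and at 5.818, 5.832 and 5.762 with CpG, with nearly the same values in Tlr997, at 7.733, 7.720 and 7.879 and at 5.825, 5.850 and 5.820. In Tlr779 they were at 7.867, 7.969 and 7.761 without and at 6.422, 6.643 and 6.697 with CL097. The log2 fold change was -1.90 (SE 0.055) and -1.95 (SE 0.055) with CpG and -1.28 (SE 0.092) with CL097 (adjusted p = 6.36e-12, 8.19e-12 and 1.53e-05), which left 0.27, 0.26 and 0.41 of the unstimulated level.

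On a scale per kilobase of exon, the levels of the 2 deubiquitinase genes went from near each other to far apart. The mean log2 ratio of Tnfaip3 to Cyld was 0.26 ± 0.02 (SD, n = 3) in unstimulated Tlr9+/-, near equal levels, and 4.49 ± 0.05 with CpG. It went from 0.31 ± 0.14 to 3.96 ± 0.11 in Tlr997 and from 0.00 ± 0.10 to 2.86 ± 0.22 in Tlr779. The log2 ratio of Tnfaip3 to Tnip1 on the same scale was 0.31 ± 0.05 in Tlr9+/- with CpG and -0.04 ± 0.02 in Tlr997 with CpG. The scale uses all annotated exons of a gene, and which of them the cells used was not tested. Which of 2 genes had more transcript is therefore open where a ratio is near 0.

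The LUBAC genes Rnf31 and Rbck1 passed both thresholds in none of the 3 responses. Rnf31 encodes HOIP, its catalytic subunit, and was at 6.968, 6.899 and 6.980 log2 CPM in unstimulated Tlr9+/- and at 6.522, 6.392 and 6.579 with CpG. That log2 fold change of -0.45 (SE 0.084, adjusted p = 0.00029) had groups that did not overlap but was under the fold threshold. In Tlr997 the values were 6.936, 7.018 and 6.898 without and 7.006, 6.645 and 6.734 with CpG (log2 fold change -0.16, SE 0.084, adjusted p = 0.12), and in Tlr779 6.915, 6.582 and 6.754 without and 7.117, 6.758 and 6.900 with CL097 (0.17, SE 0.12, adjusted p = 0.22), so that the groups overlapped in both. Between Tlr779 libraries of the same number the differences were 0.202, 0.176 and 0.146, and with the replicate number as a block the adjusted p for Rnf31 was 0.043, while its log2 fold change of 0.17 stayed under the fold threshold of 0.5. Rnf31 overlaps Irf9 on the same strand over 123 bases, 2.15% of its exon length, and the level of Irf9 went from 7.94 to 7.44 log2 CPM with CpG in Tlr9+/-, from 7.99 to 7.68 in Tlr997 and from 7.73 to 7.71 with CL097, whose part in the values of Rnf31 was not tested. Rbck1, which encodes HOIL-1, the accessory subunit, stayed between 7.018 and 7.400 log2 CPM in all 18 libraries. Its log2 fold changes were 0.11 (95% interval -0.06 to 0.27), 0.22 (0.06 to 0.39) and 0.14 (-0.01 to 0.29), with adjusted p-values of 0.23, 0.019 and 0.091.

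Birc3, Traf1 and Traf2 encode proteins of one receptor complex. TRAF2 is the adaptor at receptors of the TNF receptor superfamily that recruits cIAP1 and cIAP2, the ubiquitin ligases encoded by Birc2 and Birc3, and TRAF1 is a relative that pairs with TRAF2 and lacks the RING domain. Traf1 had the largest response of the 10 members. It was at 6.370, 6.227 and 6.497 log2 CPM in unstimulated Tlr9+/- and at 9.202, 9.165 and 9.286 with CpG. In Tlr997 it was at 6.187, 6.794 and 6.278 without and at 8.943, 9.136 and 9.171 with CpG, and in Tlr779 at 6.308, 6.569 and 5.820 without and at 8.865, 8.735 and 8.451 with CL097. The gap between the groups was wide beside the spread among the unstimulated libraries, which reached an SD of 0.38 in Tlr779. The log2 fold changes were 2.85 (SE 0.13), 2.66 (SE 0.13) and 2.45 (SE 0.19), or 7.22-fold, 6.34-fold and 5.47-fold, with adjusted p-values of 2.75e-10, 6.80e-10 and 1.99e-05.

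Traf2 gained far less than Traf1. Its level was 5.851 to 6.087 log2 CPM in unstimulated Tlr9+/- and 6.353 to 6.360 with CpG, 5.895 to 6.014 against 6.224 to 6.255 in Tlr997, and 5.836 to 5.949 against 6.129 to 6.343 in Tlr779. The groups did not overlap, and the log2 fold changes of 0.41, 0.27 and 0.33 had adjusted p-values of 8.20e-05, 0.0021 and 0.0083 but were under the fold threshold. Per kilobase the mean log2 ratio of Traf1 to Traf2 was -0.37 ± 0.04 (SD, n = 3) in unstimulated Tlr9+/- and 2.07 ± 0.06 with CpG, -0.34 ± 0.30 and 2.05 ± 0.13 in Tlr997, and -0.46 ± 0.43 and 1.66 ± 0.12 in Tlr779, so on this scale Traf1 went from near Traf2 to far above it.

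Birc3 passed both thresholds in Tlr779. It was at 8.702, 8.759 and 8.757 log2 CPM in unstimulated Tlr779 and at 9.591, 9.516 and 9.494 with CL097, a log2 fold change of 0.79 (SE 0.060, adjusted p = 1.93e-05). In Tlr9+/- it was at 8.814, 8.788 and 8.882 without and at 9.148, 9.202 and 9.174 with CpG, and in Tlr997 at 8.736, 8.621 and 8.890 without and at 9.164, 9.043 and 9.213 with CpG. Those groups did not overlap either, but the log2 fold changes of 0.35 (SE 0.067, adjusted p = 0.00039) and 0.39 (SE 0.067, adjusted p = 0.00015) were under the fold threshold.

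Bcl3 encodes an IκB-like protein of the nucleus that joins homodimers of the NF-κB subunits p50 and p52, and CYLD is known to control its entry into the nucleus. It was at 6.455, 6.494 and 6.759 log2 CPM in unstimulated Tlr9+/- and at 7.308, 7.291 and 7.384 with CpG. In Tlr997 it was at 6.362, 6.395 and 6.623 without and at 6.909, 6.738 and 6.871 with CpG, and in Tlr779 at 6.399, 6.566 and 6.511 without and at 7.814, 7.449 and 7.509 with CL097. Within each genotype the stimulated libraries were above the unstimulated ones, and the 3 Tlr997 libraries with CpG were below the 3 of Tlr9+/- with CpG. The log2 fold change was 0.76 (SE 0.089, adjusted p = 3.98e-06) in Tlr9+/-, 0.38 (SE 0.089, adjusted p = 0.0018, under the fold threshold) in Tlr997 and 1.10 (SE 0.10, adjusted p = 5.64e-05) in Tlr779.

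Levels of different members are given here per length of all annotated exons. In unstimulated Tlr9+/- cells the order in log2 RPKM (CPM per kilobase of exon) ran from Birc3 at 6.50, Tnip1 at 5.65, Bcl3 at 5.26 and Rbck1 at 4.91 through Rnf31 at 4.43, Tnfaip3 at 4.32 and Cyld at 4.06 to Traf2 at 3.60, Traf1 at 3.22 and Tnip2 at 2.64. No neighbours in that order overlapped in range. With CpG, Birc3 was still first at 6.85, followed by Tnfaip3 at 6.64, Tnip1 at 6.33, Traf1 at 6.08 and Bcl3 at 6.02, and Cyld was last at 2.15. Here the ranges of Traf1 and Bcl3 overlapped, and so did those of Traf2 at 4.01 and Rnf31 at 3.98. In Tlr997 with CpG, Tnfaip3 at 6.14 came after Tnip1 at 6.18, with ranges that overlapped, and in Tlr779 with CL097 it stood at 5.79, after Birc3 at 7.21, Bcl3 at 6.28 and Tnip1 at 6.22.

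The genotypes of the Tlr7-/- arm were compared to ask whether the TIR domain changes these genes. Without CpG none of the 10 members differed between Tlr997 and Tlr9+/- in the limma test, 0 of 10 had an unadjusted p under 0.05, and 0.0174% of all genes tested (2 of 11494) were called. The member farthest from 0 was Tnfaip3, at 0.12 (95% interval -0.01 to 0.24, adjusted p = 0.50).

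With CpG, 1 of the 10 members was called, Tnfaip3, where 2.72% of all genes tested were called in either direction. Its level was lower in Tlr997 by 0.50 on the log2 scale, a mean of 8.99 ± 0.09 log2 CPM against 9.50 ± 0.06 (SD, n = 3 each), with an SE of 0.058, a 95% interval of -0.63 to -0.37 and an adjusted p of 0.00038. That is 0.71 of the level in Tlr9+/-. The difference of -0.5003 lies at the fold threshold itself: it was -0.45 without replicate 2 of Tlr997 with CpG, -0.47 without replicate 1 of Tlr9+/- with CpG and -0.4995 on log2(CPM + 1), each no longer called although the adjusted p was at most 0.0051 over all alternatives. Bcl3 lies just on the other side of it, lower by 0.49 on the log2 scale in Tlr997 (log2 difference -0.49, SE 0.089, 95% interval -0.68 to -0.30, adjusted p = 0.0062). It was called, at -0.52, -0.50 and -0.51, when replicate 1 or 3 of Tlr997 with CpG or replicate 2 of Tlr9+/- with CpG was left out, and at -0.51 with library weights. At an adjusted p under 0.05 and any fold change, Tnfaip3 and Bcl3 were 2 of 10 members, beside 5.92% of all genes tested.

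For the other 8 members no difference with CpG passed the test. Rnf31 was higher in Tlr997 in all 3 libraries, with a log2 difference of 0.30 (95% interval 0.11 to 0.48, adjusted p = 0.060), and Tnip1 and Traf2 had ranges that did not overlap, with differences of -0.15 (-0.26 to -0.03, adjusted p = 0.15) and -0.12 (-0.26 to 0.03, adjusted p = 0.38). The intervals for Cyld (-0.09 to 0.15), Birc3 (-0.18 to 0.11) and Rbck1 (-0.07 to 0.26) held no difference beyond 0.26, and those for Traf1 (-0.41 to 0.14) and Tnip2 (-0.41 to 0.39) were wider.

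Tested directly, as CpG response in Tlr997 minus CpG response in Tlr9+/-, the difference of responses was called for 1 of 10 members, again Tnfaip3, where 1.54% of all genes tested were called. The response was smaller in Tlr997 by 0.62 on the log2 scale (log2 difference -0.62, SE 0.082, 95% interval -0.79 to -0.44, adjusted p = 0.0022). Between libraries of the same number the increase was 2.408, 2.289 and 2.273 in Tlr9+/- and 1.687, 1.651 and 1.784 in Tlr997, so the lowest value of the one was above the highest of the other. What a number marks is not given, so these pairs need not come from the same mouse. Leaving out each of the 12 libraries in turn gave -0.65 to -0.57, always called, and the adjusted p ran from 0.00064 to 0.021 over all alternatives. This difference of responses takes in the genotype difference without CpG, 0.12 and not called, besides that with CpG, -0.50 and at the fold threshold. With CpG the summed B cell markers were lower in Tlr9+/- than in Tlr997, as given above, with Ms4a1 at 634 against 1518 CPM. Cd79b and Cd22 were lower too, but Pax5 was not, and Cd79a overlapped (7.613 to 7.739 against 7.489 to 7.970 log2 CPM). The plasmacytoid dendritic cell markers summed to 121 to 127.1 CPM against 184.8 to 191.8 CPM, which was mostly Tcf4. Siglech was higher in Tlr9+/-, at 1.572 to 1.947 against -0.014 to 1.217 log2 CPM, and Ccr9 was at 0.71 against 0.62. The plasma cell markers Sdc1, Prdm1, Xbp1 and Irf4 summed to 2132 to 2319 CPM against 1919 to 2038 CPM. Of these, Irf4 alone was at 2101 against 1882 CPM. Tlr9 was lower in Tlr997. The part of these differences in the result for Tnfaip3 was not tested.

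The other members' responses were not called different. For Bcl3 the difference was -0.38 (95% interval -0.65 to -0.11, adjusted p = 0.16) and for Rnf31 0.30 (0.04 to 0.55, adjusted p = 0.25). For Tnip1 it was -0.04 (-0.20 to 0.12), for Cyld -0.04 (-0.21 to 0.13), for Birc3 0.04 (-0.16 to 0.25), for Traf2 -0.13 (-0.33 to 0.07) and for Rbck1 0.12 (-0.12 to 0.35). Traf1, whose response was larger than that of Tnfaip3, had a difference of -0.19 with an interval of -0.58 to 0.21, and Tnip2, the noisiest member, one of -0.05 with an interval of -0.62 to 0.52.

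**Figure D3:**
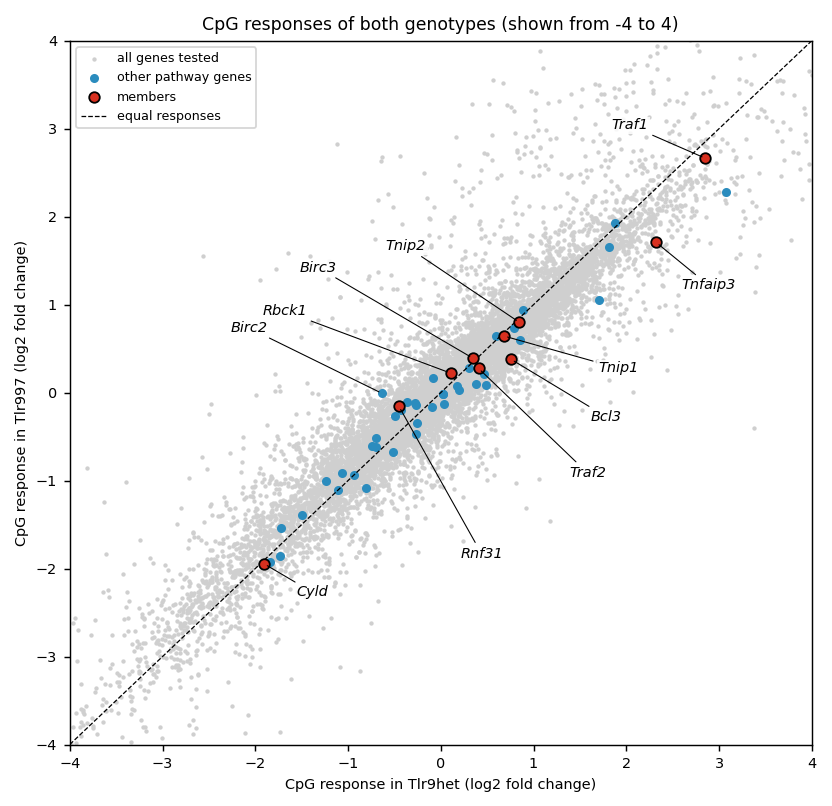
Log2 fold change with CpG in Tlr997 (vertical axis) against that in Tlr9het (horizontal axis) for all 11494 genes tested, with the 10 members in red and the other pathway genes in blue; 166 genes lie outside the plotted range. The dashed line marks equal responses, and Tnfaip3 (2.32 and 1.71) lies below it while Cyld (-1.90 and -1.95) and Tnip1 (0.68 and 0.64) lie close to it.

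Over the 12 libraries of the Tlr7-/- arm, the genes whose log2 CPM followed Tnfaip3 most closely were Afg3l2 (Pearson's r = 0.998), Surf6 (0.998), Rrs1 (0.997), Atp2a2 (0.996) and Bcl2 (0.996). Among the members Tnip1 (0.982) and Traf1 (0.980) came closest, at ranks 452 and 605 of the genes tested, and Cyld ran opposite with r = -0.983. These values describe 12 libraries that split into unstimulated and stimulated ones, and any gene with a strong response to CpG correlates with any other.

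Around the members stood a list of 44 further genes of the same pathway, of which 41 were tested. With CpG in Tlr9+/- 8 rose and 14 fell, in Tlr997 8 rose and 13 fell, and with CL097 in Tlr779 6 rose and 9 fell, beside the backgrounds given above. Their median log2 fold change was -0.26, -0.13 and -0.07. In each of the 3 responses the strongest increases of the list were those of Tnip3, which encodes ABIN-3, at 3.07, 2.28 and 2.67, and of Ikbke, a kinase of the IKK family, at 1.87, 1.93 and 2.04. Among the strongest decreases was that of the deubiquitinase gene Otud1, at -1.73, -1.86 and -1.38. Further genes are named below as examples chosen after their values were seen.

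**Figure D4:**
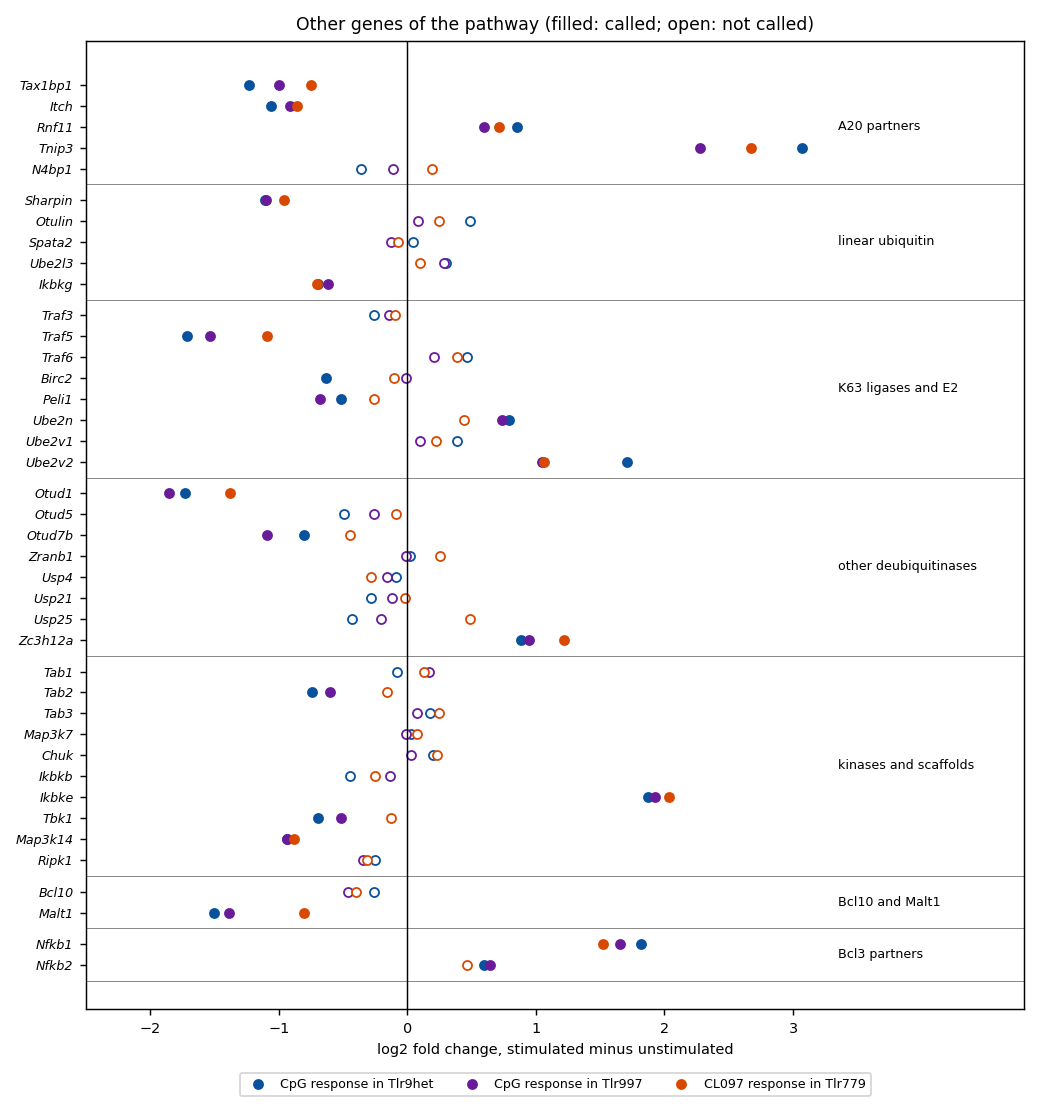
Log2 fold change (horizontal axis, stimulated minus unstimulated) of 40 of the 41 tested pathway genes, in their role groups, with CpG in Tlr9het, CpG in Tlr997 and CL097 in Tlr779. Filled points passed both thresholds and open points did not. Tnip3 and Ikbke lie farthest to the right, and Otud1 lies at -1.73, -1.86 and -1.38 on the left.

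Of the 5 further partners of A20, 2 rose and 2 fell in every response. Tax1bp1 and Itch, which encode proteins that A20 is known to need for its action, fell, with log2 fold changes from -1.23 to -0.75 for Tax1bp1 and of -1.06, -0.91 and -0.86 for Itch. Rnf11, which encodes another subunit of the A20 complex, rose by 0.86, 0.59 and 0.71, as did Tnip3. Tnfaip3 and these 2 partners, Tax1bp1 and Itch, moved in opposite directions, in responses where many genes were called each way.

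Of the 5 genes around linear ubiquitin 0 rose and 2 fell in every response, beside the same shares over all genes tested. Sharpin, which encodes the remaining subunit of LUBAC, fell by 1.10, 1.10 and 0.96 on the log2 scale, and Ikbkg, which encodes the linear-chain reader NEMO, fell by 0.69, 0.62 and 0.71. Otulin, a deubiquitinase specific for linear chains, was at 0.49, 0.08 and 0.25 and was called in none of the 3.

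Among the 8 tested ligases of lysine-linked chains and their E2 enzymes 2, 2 and 1 rose and 3, 2 and 1 fell. The same shares over all genes tested stand beside the counts in this paragraph. Ube2v2, a cofactor of the E2 enzyme Ube2n, rose by 1.71, 1.05 and 1.07, and Traf5 fell by 1.72, 1.53 and 1.09 on the log2 scale. Traf3 and Traf6 were called in none. Of the 8 other deubiquitinases tested, 1 rose in each response, Zc3h12a, better known as the ribonuclease Regnase-1, by 0.88, 0.94 and 1.22, and 2, 2 and 1 fell.

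Of the 10 kinases and scaffolds that read the chains, Ikbke alone rose, and 3, 3 and 1 fell, beside the same shares. Map3k14, the kinase NIK of the alternative pathway, fell by 0.93, 0.94 and 0.88 on the log2 scale, and Map3k7, Chuk, Ikbkb and Ripk1 were called in none. Malt1, which encodes a protease that cleaves A20, fell in every response, with log2 fold changes of -1.50, -1.39 and -0.81, and its partner Bcl10 was called in none. The partners of Bcl3 rose: Nfkb1, the gene for p50, by 1.82, 1.66 and 1.52, and Nfkb2, the gene for p52, by 0.60 and 0.64 with CpG, with 0.46 under the threshold in Tlr779.

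Between the genotypes 0 of the 41 pathway genes were called without CpG (3 had an unadjusted p under 0.05) and 0 with CpG (13 had one, and 3 passed at any fold change). Over all 11494 genes tested, 1237 had an unadjusted p under 0.05 without CpG and 2187 with CpG, and 5.92% passed with CpG at any fold change. The difference of CpG responses was called for 1, Birc2, the paralog of Birc3 that encodes cIAP1. Birc2 was at 7.010, 6.993 and 7.003 log2 CPM in unstimulated Tlr9+/- and at 6.320, 6.383 and 6.406 with CpG, while in Tlr997 it was at 6.725, 6.762 and 7.071 without and at 6.730, 6.778 and 7.022 with CpG. The high Tlr997 values in both conditions were those of replicate 3. Its log2 fold change was -0.63 (SE 0.092, adjusted p = 3.10e-05) in Tlr9+/-, -0.01 (95% interval -0.21 to 0.19) in Tlr997 and -0.10 (-0.32 to 0.11) with CL097 in Tlr779. The difference of responses was 0.62 (SE 0.13, 95% interval 0.34 to 0.90, adjusted p = 0.029), and without replicate 3 of unstimulated Tlr997 it was 0.73 (adjusted p = 0.0033). The call was lost on leaving out any of 7 of the 12 libraries, where the difference was 0.53 to 0.64 and the adjusted p 0.059 to 0.083: replicate 2 of unstimulated Tlr997, replicate 3 of Tlr997 with CpG, replicates 1 and 2 of unstimulated Tlr9+/- and each of the 3 of Tlr9+/- with CpG. Per kilobase, the mean log2 ratio of Birc3 to Birc2 went from 1.70 ± 0.05 (SD, n = 3) to 2.68 ± 0.03 with CpG in Tlr9+/- and from 1.77 ± 0.10 to 2.17 ± 0.12 in Tlr997.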

How the data were processed

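RNA was measured in 18 libraries. Per the labels and the methods, the authors prepared TruSeq Stranded mRNA libraries and trimmed reads with Trim Galore 0.6.5. They aligned them with STAR 2.6.1a to mm10, counted them per gene with featureCounts (Subread 2.0.1), and applied quantile normalization and voom. The deposited values are log2 CPM with no counts, so the depth of each library is unknown and no counting intervals were computed; whether counting used strand is not given in the sources used here. Antisense genes overlap Tnip1, Cyld, Traf2 and Bcl3, and if the counting ignored strand, their reads could not be told apart.

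The log2 values were tested as deposited with limma 3.58.1 in R 4.3.3 (lmFit and eBayes with a trend, two-sided), over genes above 0 log2 CPM in at least 3 fitted libraries, with Benjamini-Hochberg adjustment over all of them. The 12 libraries of the Tlr7-/- arm shared 1 model and the 6 of the Tlr779 arm another. Fold changes are differences of log2 CPM and understate those of low genes. The script was tested on simulated data. Exon lengths for the values per kilobase were those of all annotated exons of a gene, merged, from GENCODE vM21.

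The members and gene lists were chosen with earlier results of these data known. All 10 members were named in every comparison, as were the 2 highest and 2 lowest called pathway genes of each response (1 pathway gene and 1 marker gene count in their lists but are not reported here), each pathway gene called between genotypes, and the 5 genes most like Tnfaip3. Libraries of the same replicate number deviated together in Tlr9+/- (r of deviations 0.51, 0.29 and 0.51) and in Tlr779 (0.20, 0.42 and 0.28). The check needed every r over 0.1, which Tlr997 did not reach (0.37, 0.083 and 0.025). The labels do not say what a number marks. The deposited values carry a shift by replicate number. In the Tlr7-/- arm 6306 of 6614 genes near the floor held 1 value per number over all groups, and in 822 it differed between numbers. Peli3 was at -5.146, -4.754 and -5.255 log2 CPM in Tlr9+/- with CpG and again in Tlr779 with CL097. The source of this shift, and its effect on the SDs, p-values and r of deviations, was not tested. Alternatives changed the filter, the pseudocount, the scaling, the moderation, the samples fitted, the pairing, library weights and the thresholds, and left out each library in turn. The scaling was changed by centring each library on its median, which could move little because the medians ran from 4.76 to 4.79 log2 CPM.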

Additional observations from a re-analysis of the deposited data

Results flagged for a closer look

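The CpG response of 2 genes differed between Tlr997 and Tlr9+/- by the test of the difference itself. For Tnfaip3 the difference was -0.616 on the log2 scale, and the increases between libraries of the same number were all lower in Tlr997 than in Tlr9+/-. For Birc2, which is not a member, it was 0.623, a decrease in Tlr9+/- with no called change in Tlr997, and this call was lost in 7 of the 12 fits without 1 library, as well as without a filter on low values (adjusted p = 0.14) and without a trend in the variance (adjusted p = 0.089). The adjusted p of the Birc2 difference ran from 0.0012 to 0.14 over all alternatives.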

How the results depend on the processing

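Over all alternatives the direction and the call of the members held in most results, and the exceptions were small differences between genotypes. At a log2 fold change over 1 the members called were 3 in Tlr9+/-, 3 in Tlr997, 4 in Tlr779 and 0 for both genotype results called above, and at any fold change 9 in Tlr997 and 2 between genotypes with CpG. Between genotypes with CpG, 0 members were called on log2(CPM + 1), 2 with library weights, and 0 to 2 on leaving out each library. With library weights the sign turned for Tnip2 with CpG (0.00093), without CpG (-0.14) and in the difference of responses (0.14), for Rbck1 without CpG (0.014) and for Cyld in the difference of responses (0.011), and with median-centred libraries for Rnf31 without CpG (-0.0027). None of these differences passed the test under any setting, and the cause was not tested. Leaving out each library gave -0.081 to 0.046 for Tnip2 and -0.071 to 0.014 for Birc3 with CpG. Without CpG it gave -0.24 to 0.22 for Tnip2, -0.067 to 0.055 for Rbck1, -0.032 to 0.028 for Rnf31, -0.13 to 0.17 for Traf1 and -0.034 to 0.084 for Traf2. For the difference of responses it gave -0.22 to 0.24 for Tnip2, -0.020 to 0.11 for Birc3, -0.070 to 0.0092 for Cyld and -0.076 to 0.0033 for Tnip1.

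With the replicate number as a block the members called stayed at 6, 5, 7, 1, 0 and 1, and the block changed the call of no member, while the genes called for the difference of responses went from 177 to 328. By the check of deviations, libraries of the same number went together in Tlr9+/- and Tlr779 and not clearly in Tlr997. Whether a number marks a mouse is not given, and that check used values that carry the shift by number.

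Counts over all genes were less stable. At a log2 fold change over 1 the totals of 6650, 6388 and 5135 for the 3 responses became 4060, 3768 and 2582, the 313 between genotypes with CpG became 74 and the 177 with different responses became 46. With CpG, 313 became 187 without a filter, 485 with library weights, 680 at any fold change and 187 without replicate 1 of Tlr9+/- with CpG. For the difference of responses, 177 became 78 without a filter, 98 without a trend, 377 with library weights and 87 to 295 on leaving out a library. Unstimulated, 2 became 0 without a filter or with only both groups fitted, and 4 without replicate 2 or 3 of Tlr997. The pathway genes called at a log2 fold change over 1 were 11, 11 and 8.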
